A study of Homo sapiens with 6 samples.

Results

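The zinc finger genes of chromosome 19 are the protein-coding genes of that chromosome whose symbol begins with ZNF, taken from the GENCODE annotation on GRCh37. There were 249 of them among the 1480 protein-coding genes of the chromosome and the 20176 of the whole annotation. They were set beside the other 1231 protein-coding genes of chromosome 19. The window of a gene was its body with 5 kb on either side, and a peak was counted at a gene when it overlapped the window by 1 base or more. The rule reads the annotation and no value of the peak lists.

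The data came from 6mA-IP-seq, in which sheared genomic DNA is pulled down with an antibody to N6-methyladenine (6mA), a methylated form of adenine, and then sequenced. Peaks are stretches where fragments pile up above the local background. The DNA was that of MDA-MB-453 cells (a line from a human breast cancer), after 48 h with 10 nM of a scrambled siRNA (control) or of an siRNA that targets N6AMT1 (si-N6AMT1), the gene of a putative 6mA methyltransferase. Each group had 2 immunoprecipitated libraries, described in the methods as biological replicates, and 1 input library whose files were not used here, and every library was made from this 1 line. The peak lists carry no RNA levels, so neither the knockdown of N6AMT1 nor the identity of the line was checked here.

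Genes of this kind encode proteins with rows of Cys-His zinc fingers, small folds held by a zinc ion that read DNA sequence. Most of those on chromosome 19 also carry a Krüppel-associated box, which recruits the corepressor TRIM28 and, through it, the histone methyltransferase SETDB1 and heterochromatin proteins. Many arose by tandem duplication, so they lie in clusters of close relatives, and a large share of their known targets are transposable elements. An antibody peak at such a gene is a property of its DNA and says nothing on its own about the level of the protein.

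The control lists held 30451 and 33410 peaks, and those of si-N6AMT1 held 38847 and 40844. The lowest background that the peak caller applied in a list, which rises with the number of fragments, came to 1.05 and 1.36 fragments for the control libraries, against 1.41 and 1.53 for si-N6AMT1, so depth, list length and treatment moved together. The median peak at a zinc finger gene rested on a pileup of 14, 15, 16 and 16 fragments in control 1, control 2, si-N6AMT1 1 and si-N6AMT1 2. Read totals were not used here. Between replicates, 50.7% to 55.3% of the peaks at zinc finger genes were shared, against 66.1% to 70% of those at the other genes of the chromosome.

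A sequence shared by neighbouring genes of 1 cluster lay under 18.0% of the peak regions at these genes, and it is shown first. Peaks of the 4 libraries that overlapped were merged into regions, which gave 167 regions at zinc finger genes. When 400 bases around the summit of each region were aligned to those of the others, 30 regions, all between 52.6 and 54.0 Mb of the chromosome, formed a group linked by alignments of at least 200 bases and 70% identity. The most common 16-base word of that group, ACCACTCTGCTCTGTC, searched on both strands, lay in 17 of its 30 regions. It lay in none of the other 137 regions at zinc finger genes and in none of the 835 regions at other genes. Among all 200-base tiles it lay in 0.0362% of the 46995 tiles of the zinc finger gene windows and in none of the 153048 tiles of the other windows. It occurred 20 times on the whole chromosome and 5 times elsewhere in the genome. The word was picked from the group of 30, which was formed by aligning these regions. Its absence from the other regions is therefore a description and not a test. The tiles are also shorter than the regions at zinc finger genes. The lines below give 76 bases around the word, which is in capitals, on the strand that carries it in GRCh37. The first 4 come from regions called in all 4 libraries, the next 2 from regions called only in si-N6AMT1 and the last from a region called in control 1 alone.
ZNF83, chr19:53140589-53140664, plus strand: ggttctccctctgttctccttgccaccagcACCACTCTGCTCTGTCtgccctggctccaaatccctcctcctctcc
ZNF83, chr19:53151210-53151285, plus strand: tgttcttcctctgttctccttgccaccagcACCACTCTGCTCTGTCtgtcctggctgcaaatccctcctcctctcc
ZNF611, chr19:53237240-53237315, plus strand: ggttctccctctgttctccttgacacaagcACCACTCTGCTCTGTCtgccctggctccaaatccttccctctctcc
ZNF816-ZNF321P, chr19:53444884-53444959, plus strand: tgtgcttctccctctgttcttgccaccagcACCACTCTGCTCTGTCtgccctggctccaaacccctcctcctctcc
ZNF888, chr19:53425618-53425693, plus strand: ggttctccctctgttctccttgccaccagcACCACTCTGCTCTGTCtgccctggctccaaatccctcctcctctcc
ZNF525, chr19:53869928-53870003, minus strand: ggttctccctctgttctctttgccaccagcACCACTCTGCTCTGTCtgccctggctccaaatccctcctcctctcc
ZNF701, chr19:53074499-53074574, minus strand: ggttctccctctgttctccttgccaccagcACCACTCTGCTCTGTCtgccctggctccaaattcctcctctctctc
The bases on either side of the word were nearly the same in these genes, and the strand shown consists mostly of the pyrimidines C and T. The opposite strand therefore consists mostly of the purines A and G.

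Fewer peaks lay at zinc finger genes than at other genes of the chromosome. A peak was found at 52 and 61 zinc finger genes in control and at 72 and 74 in si-N6AMT1, which is 20.9% to 29.7% of them. The other genes with a peak numbered 329, 355, 415 and 447 in the same order, or 26.7% to 36.3%, although the zinc finger genes were longer, with a median of 25.9 kb against 13.8 kb. Per Mb of window, summits stood at 6.90 and 7.54 in control against 9.98 and 10.1 in si-N6AMT1 for zinc finger genes. The other windows had 13.2, 13.5, 17.5 and 18.5 summits per Mb. The ratio of the densities was 0.522, 0.557, 0.571 and 0.545, with a mean log2 ratio of -0.87 ± 0.054 (SD, n = 4 libraries). The ratio was below 1 in 4 of 4 libraries (exact two-sided sign-flip test, p = 0.125, the smallest that 4 libraries allow). Divided by the length of all nuclear chromosomes, the whole lists held 9.84, 10.8, 12.5 and 13.2 peaks per Mb. In each library this lay between the density at zinc finger genes and that in the other windows of chromosome 19.

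**Figure D1:**
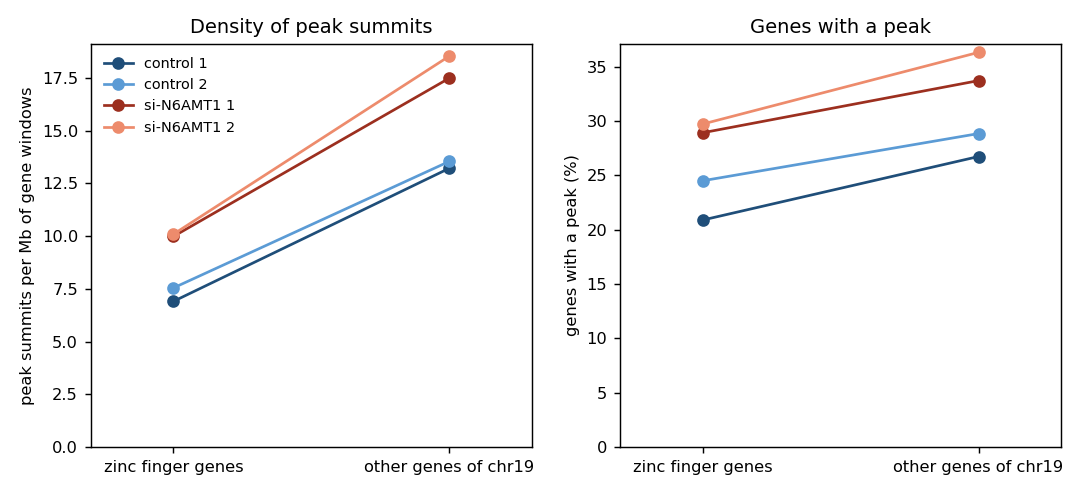
Peak summits per Mb of gene windows (left) and the percentage of genes with a peak (right), for the 249 zinc finger genes and the 1231 other protein-coding genes of chromosome 19; each line joins the values of 1 library. All 4 lines rise from the zinc finger genes to the other genes, from 6.90 to 10.1 summits per Mb up to 13.2 to 18.5.

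The zinc finger windows were poorer in G and C, at 43.5% against 51.6% of bases in the other windows. When the windows were ranked by GC content, 222 of the 249 zinc finger genes fell in the lowest of 3 equal classes, between 35.6% and 50.03% GC, beside 271 other genes. In that class the density ratio was 0.626 and 0.601 in control against 0.665 and 0.568 in si-N6AMT1, below 1 in each library. The middle class, from 50.04% to 54.6% GC, held 13 zinc finger genes and 480 others. There the ratio was 0.999 and 1.19 in control against 1.10 and 1.10 in si-N6AMT1, so the lower density was not seen in that class. Its zinc finger windows covered only 0.299 Mb, so these ratios rest on few summits and cannot show that a lower density is absent. In the highest class, with 14 zinc finger genes, 3 of the 4 libraries had no summit at them. The median fold enrichment of peaks at zinc finger genes was 7.32, 6.77, 6.63 and 6.73 in the 4 libraries, against 8.72, 7.80, 7.87 and 7.52 at other genes. The difference of -1.11 ± 0.262 had the same sign in 4 of 4 libraries (exact sign-flip test, p = 0.125, the smallest possible). Over all peaks of each list the median fold enrichment was 7.38, 6.92, 6.92 and 6.64, close to that at zinc finger genes.

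More peaks were listed at zinc finger genes in si-N6AMT1, as in the lists as a whole. They numbered 65 and 71 in control against 94 and 97 in si-N6AMT1, and the groups did not overlap. The difference between group means was 27.5 peaks, and 16.5 genes with a peak (exact permutation test over the 6 assignments of libraries, p = 0.333 for each, the smallest that 2 against 2 allow). As a share of all peaks, those at zinc finger genes made up 0.213% and 0.213% in control, against 0.242% and 0.237% in si-N6AMT1 (p = 0.333 by the same exact test). The density ratio to other genes moved by 0.048 on the log2 scale between groups (p = 0.667, exact permutation test). When each list was reduced to its 30451 most significant peaks, the genes with a peak numbered 52 and 56 in control against 51 and 56 in si-N6AMT1, and the peaks at them 65 and 66 against 63 and 70. The share of all peaks was then 0.213% and 0.217% in control against 0.207% and 0.230% in si-N6AMT1. The groups then overlapped in all 3 measures.

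Of the 249 genes, 143 had no peak in any library, 78 had one in 1 to 3 libraries and 28 had one in all 4. These 28 are 11.2% of the zinc finger genes, against 19.7% of the other genes of the chromosome and 23.8% of all protein-coding genes. The 143 without a peak are 57.4% of the zinc finger genes, against 52.7% and 45.8% in the same order. ZNF536, which encodes a repressor of neuronal differentiation and at 489 kb is the longest of the 249, held 8 and 6 peaks in control against 9 and 8 in si-N6AMT1. It is outside the clusters and alone accounted for 8.68% of the peaks counted over the genes. ZNF83 held 3 and 2 peaks in control against 4 and 4 in si-N6AMT1. ZNF254 held 2 and 2 against 3 and 3. ZNF574, ZNF611 and ZNF780B held 2 in each library. ZNF91, whose protein represses retrotransposons, held 2 and 2 peaks in control against 3 and 1 in si-N6AMT1, and ZNF347 held 1, 2, 2 and 2. The number of peaks rose with gene length (Spearman's rho = 0.34 across the 249 genes, given as a description because many windows overlap); genes without a peak had a median length of 20.9 kb and those with a peak in all 4 libraries one of 32.8 kb.

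**Figure D2:**
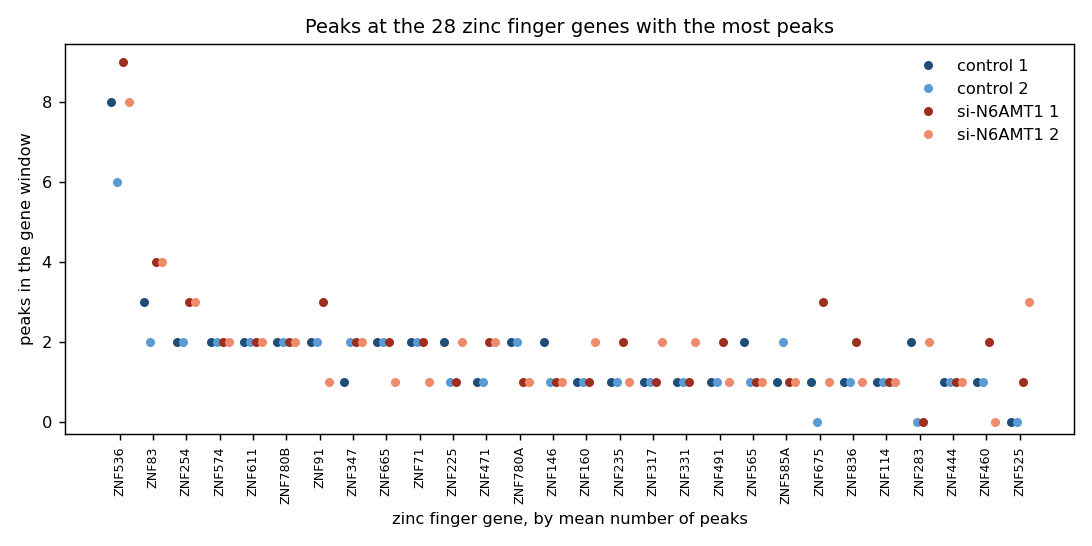
Number of peaks in the window of each of the 28 zinc finger genes with the highest mean over the 4 libraries; each point is 1 library. ZNF536 stands apart with 6 to 9 peaks, ZNF83 follows with 2 to 4, and the rest hold 0 to 3.

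The gene counts of the groups did not overlap at 19 genes. There were more peaks in both si-N6AMT1 libraries at 17 of 249, or 6.83%, where the share over all protein-coding genes was 7.04%, and more in both control libraries at 2 of 249, or 0.803%, where it was 1.64%. Both shares of the zinc finger genes lay close to or under those of all genes. The largest differences toward si-N6AMT1 were at ZNF525 (0 and 0 against 1 and 3), ZNF180 and ZNF584 (each 0 and 0 against 1 and 2) and ZNF83 (3 and 2 against 4 and 4). At the other 13 genes the group means differed by 1 peak, ZNF221 (0 and 0 against 1 and 1) among them. The 2 in the other direction were ZNF676 (1 and 1 against 0 and 0) and ZNF780A (2 and 2 against 1 and 1). Each of these differences rests on 1 to 3 peaks, and a count does not require peaks at the same site. Of the genes named, ZNF525, ZNF180 and ZNF83 each held a region called in both si-N6AMT1 libraries and in no control library. At ZNF584, ZNF221 and ZNF676 the libraries of the group with more peaks had them at different sites. ZNF780A held no region called in both control libraries alone.

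Of 11 genes with a described role, 6 had no peak in any library, near the 57.4% of all 249 without one. ZNF274, which brings SETDB1 to zinc finger genes, ZNF417 and ZNF587, which repress endogenous retroviruses, ZNF473, which takes part in histone transcript processing, and ZNF224 and ZNF382, both repressors of transcription, had none in any library. Those with a peak were ZNF91, given above, and the next 4. ZNF93, which represses LINE retrotransposons, had none in control and 1 in each si-N6AMT1 library, at different sites. ZNF146, which consists almost entirely of zinc fingers, held 2 and 1 peaks in control against 1 and 1 in si-N6AMT1. ZNF331, which is imprinted in several tissues, held 1 and 1 against 1 and 2. ZNF671, a gene silenced by promoter methylation in several cancers, held a single peak, in control 2.

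The 15 genes listed as partners of these proteins in silencing were looked up in the same way. TRIM28, CBX1, CBX3, MORC2, SUV39H1 and TASOR, 6 of the 15, had no peak in any library, where 45.8% of all protein-coding genes had none. ATRX, which encodes a chromatin remodeller and lies on the X chromosome, held 15 and 17 peaks in control against 18 and 13 in si-N6AMT1. SETDB1 held 3 and 3 against 2 and 2, and HDAC2 1 and 0 against 2 and 2. In all, 6 of the 15 had a peak in all 4 libraries, where the share over all protein-coding genes is 23.8%. The counts of the groups separated at 2 of the 15, HDAC2 toward si-N6AMT1 and SETDB1 toward control. Over all protein-coding genes, 7.04% had more peaks in both si-N6AMT1 libraries and 1.64% had more in both control libraries.

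The 167 regions were called less often in all libraries than other regions of the chromosome. All 4 libraries called 23 of them, or 13.8%, against 16.7% of the 72537 regions of the whole series and 29.9% of the 835 regions at other genes of chromosome 19. Called in both si-N6AMT1 libraries but in no control library were 15, or 8.98%, against 5.86% over the whole series and 5.87% at the other genes. Called in both control libraries but in no si-N6AMT1 library were 2, or 1.20%, against 2.62% and 1.32%. A further 78 regions, or 46.7%, were called in 1 library alone, against 49.6% over the whole series and 39.9% at the other genes. With equal numbers of peaks in each list the regions called only in control numbered 6 and those called only in si-N6AMT1 numbered 5. Overlapping windows gave 16 regions to more than 1 zinc finger gene.

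The regions called in all 4 libraries that ranked highest by their lowest rank in any list lay at ZNF331, ZNF780A, ZNF574, ZNF91 and ZNF536, followed by 3 of equal rank at ZNF816-ZNF321P (a read-through gene), ZNF444 and again ZNF536. In the intron of ZNF331 (chr19:54061992-54063674) the fold enrichment was 9.28 and 10.6 in control against 11.2 and 8.31 in si-N6AMT1. The region in ZNF780A (chr19:40583447-40584996) reached 10.7, 8.46, 9.11 and 9.10. Beside ZNF574 (chr19:42570451-42571036) the values were 9.28 and 9.31 in control against 10.8 and 7.91 in si-N6AMT1. At these 3 regions the values of the groups overlapped. In ZNF91 (chr19:23505822-23507168) they were 12.7 and 7.77 against 9.11 and 10.7, which overlap as well. The first region of ZNF536 (chr19:30828718-30829529) had 10.4 and 9.73 in control against 7.87 and 8.70 in si-N6AMT1, with both control values above both others. Its second region (chr19:30925572-30926560) had 9.28 and 7.19 against 9.53 and 11.5, with both control values below. At ZNF444 (chr19:56670171-56670825) the values were 9.28 and 7.19 in control against 12.01 and 10.7 in si-N6AMT1. The region of ZNF816-ZNF321P (chr19:53444464-53445282) had 8.79 and 7.19 in control against 10.8 and 11.1 in si-N6AMT1, again lower in control. The 2 regions called only in control lay in ZNF726 (chr19:24124514-24124989, 6.84 and 8.04) and beside ZNF780B (chr19:40565678-40566263, 4.88 and 6.91). The highest of those called only in si-N6AMT1 lay at ZNF493 (chr19:21578854-21579287, 9.53 and 7.52), ZNF525 (chr19:53869680-53870113, 8.28 and 7.12) and ZNF180 (chr19:44993658-44994383, 9.53 and 6.33).

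The sequence under the summit is shown for 3 of these regions, chosen for their long tracts of purines or pyrimidines. They do not stand for all: of the 5 regions of highest rank, 2 had at least 75% purines on 1 strand of the 200 bases on the summit, ZNF574 with 87.0% and ZNF91 with 96.5%, and 3 did not. Each line holds 200 bases of the GRCh37 plus strand centred on the summit, and capitals mark the longest stretch made of purines only or of pyrimidines only. The first 2 were called in all 4 libraries and the last only in si-N6AMT1.
ZNF574, chr19:42570625-42570824, plus strand: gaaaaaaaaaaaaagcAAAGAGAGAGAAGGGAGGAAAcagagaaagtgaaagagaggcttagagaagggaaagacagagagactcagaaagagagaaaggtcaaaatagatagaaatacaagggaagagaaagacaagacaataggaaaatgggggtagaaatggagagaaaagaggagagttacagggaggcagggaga
ZNF91, chr19:23506015-23506214, plus strand: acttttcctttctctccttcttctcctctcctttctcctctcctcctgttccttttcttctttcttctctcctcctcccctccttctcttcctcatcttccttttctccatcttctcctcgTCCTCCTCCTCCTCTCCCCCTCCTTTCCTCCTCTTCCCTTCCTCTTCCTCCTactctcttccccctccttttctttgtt
ZNF493, chr19:21578981-21579180, plus strand: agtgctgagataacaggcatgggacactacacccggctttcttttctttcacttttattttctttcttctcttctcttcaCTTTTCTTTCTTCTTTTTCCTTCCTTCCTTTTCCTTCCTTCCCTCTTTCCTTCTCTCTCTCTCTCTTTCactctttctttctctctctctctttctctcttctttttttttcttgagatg
ZNF91 and ZNF493 show long pyrimidine tracts of 52 and 69 bases, and ZNF574 is made of purines over most of its window.

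Such tracts were more common at the summits of the 167 regions than in their surroundings. In 35.9% of the 200-base windows on their summits, at least 75% of the bases on 1 strand were purines, against 0.421% of all 200-base tiles of the zinc finger windows. At regions of other genes the shares were 41.1% of summit windows and 1.04% of tiles. All 30 related regions of the cluster from ZNF175 to ZNF331 reached this purine share (100%). They are counted in the 35.9%, so the share among the other 137 regions at zinc finger genes was lower. An unbroken run of at least 20 purines or pyrimidines occurred in 34.7% of the zinc finger summit windows and 6.10% of tiles, and a run of at least 10 adenines, on either strand, in 29.9% and 10.9%. In 82 of the 167 windows, or 49.1%, neither the purine share nor the purine or pyrimidine run was reached. Windows 1000 bp to either side of the summits resembled the tiles, with 1.20% reaching the purine share. In GC content the summit windows averaged 41.8%, 40.6%, 41.6% and 39.8% in the 4 libraries, against 47.1%, 46.9%, 46.6% and 46.7% at other genes. The difference of -5.86 ± 0.896 percentage points had the same sign in 4 of 4 libraries (exact sign-flip test, p = 0.125, the smallest possible). The regions called in all 4 libraries averaged 45.0% GC and those called in 1 library 36.8%.

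**Figure D3:**
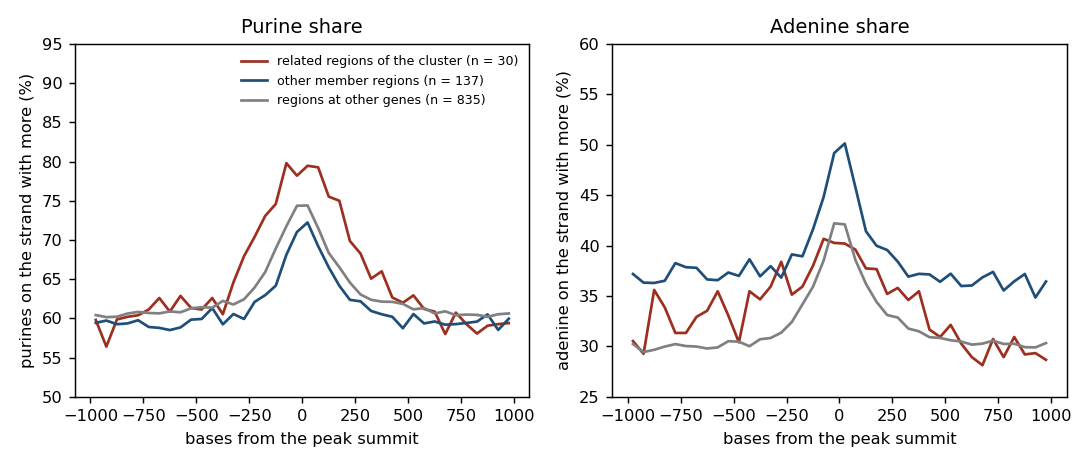
Mean share of purines (left) and of adenine (right) in 50-base bins, each on the strand with more of them, against the distance from the summit in bases, for the 30 related regions of the cluster from ZNF175 to ZNF331, 137 other regions at zinc finger genes and 835 regions at other genes of chromosome 19. Purines peak at the summit in all 3 sets, most broadly in the related regions, and the adenine share at the summit is highest, at 50.1%, in the other regions at zinc finger genes.

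Few summits lay in exons. The windows were divided into promoters (1 kb on either side of a transcript start), other exons, introns and the rest. Promoters took 7.13% of the length and 16.2% ± 1.61 of the summits (SD, n = 4), introns 63.2% and 66.2% ± 2.26, and exons outside promoters 11.9% and 1.14% ± 0.877. Of the 20 regions in promoters, 8 belonged to the 30 related regions of the cluster from ZNF175 to ZNF331. Within gene bodies, 0 of 52, 1 of 57, 1 of 75 and 2 of 81 summits lay in an exon in control 1, control 2, si-N6AMT1 1 and si-N6AMT1 2, although exons covered 16.1% of the length. At other genes of the chromosome 3.43% to 4.25% of summits in gene bodies lay in exons, which covered 13.1% of their length. The share at zinc finger genes, 1.39% ± 1.04 over the 4 libraries, did not separate control from si-N6AMT1 (p = 0.667, exact permutation test, for which the smallest value is 0.333). No region at all, 0 of 167, had its summit in a coding exon of a zinc finger gene, the part that encodes the fingers, which allows a share of up to 1.80% by counting error.

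The genes fell into 10 clusters of at least 5 members with gaps of at most 500 kb, which took in 235 of them. Over the 4 libraries, the cluster from ZNF175 to ZNF331 (40 genes, 52.1 to 54.1 Mb) had the highest density, 13.8 ± 2.79 summits per Mb of window. It held 16 and 18 summits in control against 24 and 24 in si-N6AMT1, and 7 of the 23 regions called in all 4 libraries. The cluster from ZNF628 to ZNF835 (16 genes) had 13.7 ± 1.43, from 5, 6, 6 and 5 summits, which did not differ from the first beyond the spread. The largest cluster, from ZNF264 to ZNF446 (43 genes at the end of the long arm), had 4 and 5 summits in control against 7 and 3 in si-N6AMT1, a density of 4.66 ± 1.67, and no region called in all 4 libraries. The cluster from ZNF101 to ZNF254 next to the centromere (37 genes) had 11 and 9 against 20 and 14, a density of 6.37 ± 2.26. The cluster from ZNF302 to ZNF792 (5 genes) had no summit in any library. In the cluster from ZNF575 to ZNF180 (23 genes) si-N6AMT1 2 stood alone with 13 summits, where the other libraries had 5, 4 and 5.

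**Figure D4:**
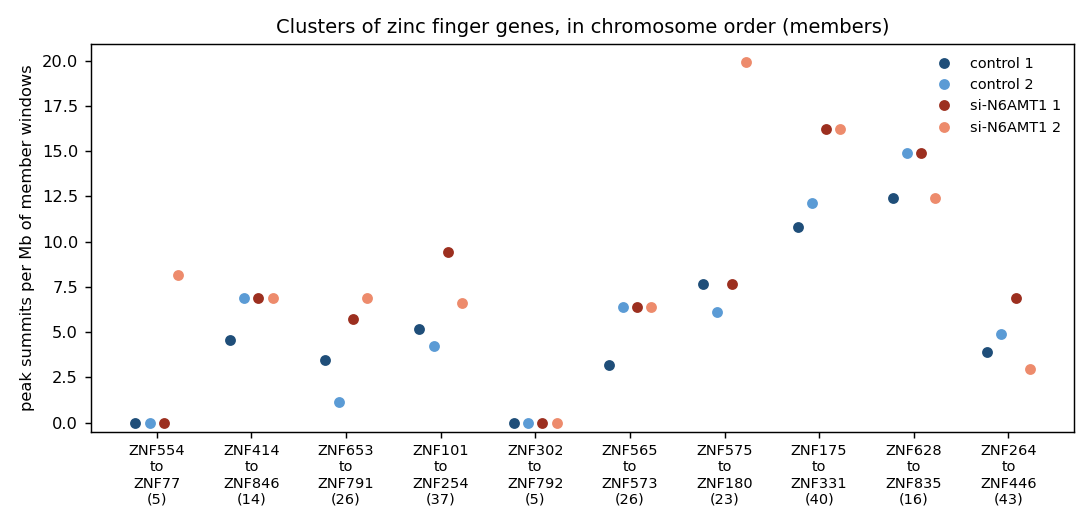
Peak summits per Mb of zinc finger gene windows in each of the 10 clusters, named by their first and last gene with the number of members in parentheses; each point is 1 library. The clusters from ZNF175 to ZNF331 and from ZNF628 to ZNF835 lie between 10.8 and 16.2 summits per Mb in every library, and the values of the other clusters are mostly below 10.

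The group of 30 related regions lay wholly in the cluster from ZNF175 to ZNF331, of whose 37 regions it made up 30. These regions were 18.0% of all regions at zinc finger genes and 26.1% of those called in all 4 libraries. Their aligned parts were up to 96.1% identical, with a median of 83.5%, over 199 pairs. A search of the whole genome with the shared part of the 6 members called in all 4 libraries (243 to 366 bases) found 36 copies at the same limits, all of them on chromosome 19 between 52.6 and 54.0 Mb and none on another chromosome. Of the 30 related regions 28 overlapped a copy; the other 2 lay in ZNF808 and ZNF611. The copies had a median length of 410 bases and together covered 14.7 kb. Since the search started from peaks, the number of copies with a peak is a description and not a test of enrichment.

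Each copy carried its purines on 1 strand, 74.6% to 79.9% of its bases. Of the 36 copies, 33 lay in the body of a zinc finger gene, and in 32 of these the purines were on the gene's own strand. The exception was the copy at chr19:53105300-53105780 in ZNF83. The 25 related regions at a single gene showed the same, with purines on the gene strand in 24, while among the other regions at a single zinc finger gene the purines were on the gene strand in 33 and the pyrimidines in 93. The copies also kept their place: 19 of the 36 were centred 900 to 1100 bases after a transcript start, among them those of ZNF616, ZNF836, ZNF610, ZNF808, ZNF611, ZNF600, ZNF888, ZNF665 and ZNF525. In all, 26 lay in introns, 7 within 1 kb of a start and 3 outside the windows.

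A copy lay in the window of 27 of the 40 genes of this cluster. Of these 27, 14 and 16 had a peak in control against 19 and 17 in si-N6AMT1, 25 had one in at least 1 library and 7 in all 4. Of the 13 genes without a copy only ZNF331 had a peak, in each of the 4 libraries. The search for copies started from regions with peaks, so this contrast of genes is a description and not a test. The same holds for the share of peaks set against window length below. Peaks on copies numbered 13 and 15 in control against 22 and 16 in si-N6AMT1 within the windows. They made up 20% and 21.1% of the peaks at zinc finger genes in control, against 23.4% and 16.5% in si-N6AMT1, while the copies within windows made up 0.143% of the window length. That share did not differ between groups beyond its spread (20.6% ± 0.797 against 19.9% ± 4.89, SD, n = 2, p = 1, exact permutation test). The copies with a peak numbered 14 and 15 against 22 and 18 of the 36, without overlap (p = 0.333, exact permutation test, the smallest possible). The lists as a whole separated too, with 30451 and 33410 peaks in control against 38847 and 40844 in si-N6AMT1. No count of copies at equal list length is given here.

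Single copies were called unevenly. A peak was found in all 4 libraries on 6 copies, in 1 to 3 libraries on 24 and in none on 6. The 6 called throughout were 2 in ZNF83 and 1 each in ZNF611, ZNF816-ZNF321P, ZNF160 and ZNF347, the last within the window of ZNF665 as well. The copies in ZNF888, ZNF525 and at ZNF415 and ZNF347, and the reversed copy in ZNF83, were called in each si-N6AMT1 library and in no control library; 4 of the 30 related regions, or 13.3%, showed this pattern and none showed the opposite one, where the shares over all regions were 5.86% and 2.62%. The si-N6AMT1 lists were longer, and with lists of equal length the regions at zinc finger genes called in 1 group alone numbered 5 for si-N6AMT1 and 6 for control. Fold enrichment on called copies had the ordinary level of these genes, such as 6.84 and 7.19 in control against 8.70 and 7.91 in si-N6AMT1 on the ZNF83 copy at chr19:53140304-53140793. On the next copy of ZNF83, at chr19:53150924-53151416, the order was the reverse, with 8.79 and 8.89 in control against 4.97 and 4.98 in si-N6AMT1. The summit pileups on that copy were 17 and 20 fragments in control against 16 and 17 in si-N6AMT1. They differed less than the fold values, which are ratios over the local background. The pileups are not scaled for depth. The lowest background, which rises with depth, was 1.05 and 1.36 fragments in control against 1.41 and 1.53 in si-N6AMT1. For the 39 peaks on regions with the 16-base word, the summit lay a median of 9 bases after the first base of the word, with quartiles at -111 and 100. Exact copies could share reads, and 3.31% of the 100-base words of the copies occurred again on the chromosome, against 0.890% in the zinc finger windows and 0.884% in the other windows. The part of such shared words in the counts was not tested.

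**Figure D5:**
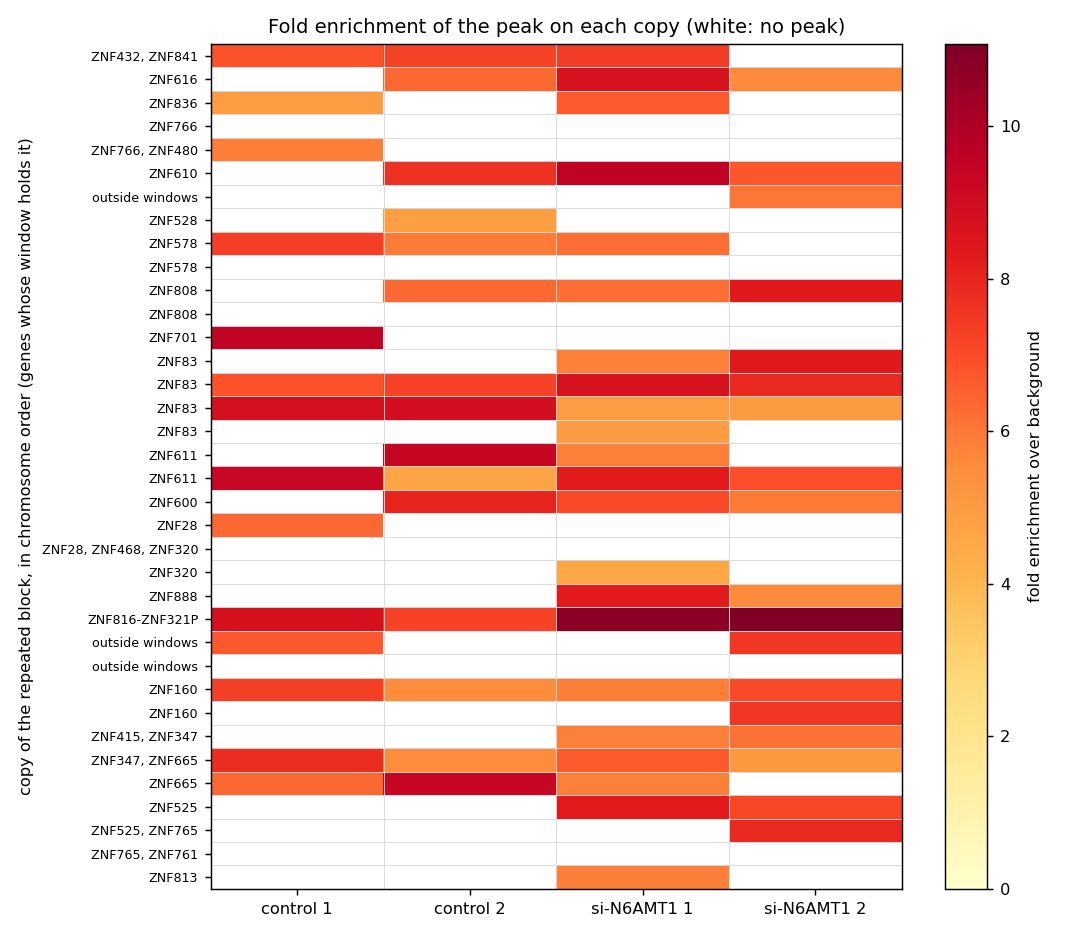
Fold enrichment of the peak on each of the 36 copies of the repeated block, in chromosome order, labelled by the zinc finger genes whose window holds the copy (a copy in 2 windows carries both names); white cells have no peak. Rows of 6 copies are filled in all 4 columns, and called and uncalled copies alternate along the cluster in every library.

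Further groups of related sequence were spread over the chromosome. A group of 31 regions between 9.78 and 58.2 Mb, 15 of them in the cluster from ZNF101 to ZNF254, averaged 53.0% adenine on the strand with more and 30.3% GC. None of the 31 was called in all 4 libraries and 20 were called in 1 library. A group of 24 regions averaged 40.5% GC, and again none was called in all 4 libraries. Under stricter alignment limits no group outside the cluster from ZNF175 to ZNF331 held more than 19 regions. Neither group was assigned to a repeat class, because no repeat annotation was used here. A group of 5 regions between 30.8 and 56.7 Mb averaged 47.7% GC, and 1 of them was called in all 4 libraries. The remaining regions, 77 of 167, belonged to no group of 5 or more.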

How the data were processed

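Groups came from the sample titles. Per the study's methods and the submitters' notes, the authors trimmed reads, aligned them to hg19 with Bowtie2 2.3.5, removed duplicates with SAMtools 1.9 and called peaks per library against input with MACS2 at p = 1e-05. The deposited lists give each peak a score, a fold enrichment (a ratio over local background), a −log10 p and a −log10 q, with its summit. No peak ended past a GRCh37 chromosome, so GRCh37 and GENCODE 44 lifted to it were used. Intervals, summit pileups (recovered from fold and −log10 p, whole within 0.02 for 100% of peaks), regions and exact tests were computed in Python 3.11.15 with numpy 2.4.6, pandas 2.3.3 and scipy 1.17.1, and alignments with BLAST+ 2.17.0 (E-value limit 1e-10). Counting by gene, merging of regions, the exact tests and the pileup recovery were tested on simulated data. The alignments, the sequence measures and the division into exons and other parts were not. Members, gene lists and the partner list were chosen with earlier results of these data known. Named genes were the 8 with most peaks, holders of the highest-ranked regions of each class, genes whose counts separated the groups, and genes of known role. The study's test of differential signal needs tracks, so called and uncalled regions were compared. The summit sequences of some regions are not reported here. Intervals and floors cover counting error only. Alternatives were other flanks, a stricter q (−log10 q from 5 upward), lists cut to one length, overlap, merging and GC rules, a replicate block, leaving out each library and, added after seeing the data, leaving out ZNF536 or the repeated block and stricter alignment limits.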

Additional observations from a re-analysis of the deposited data

How the results depend on the processing

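The density ratio, fold difference and GC difference between zinc finger genes and other genes kept their direction under every alternative run. The log2 ratio lay between -1.20 without the repeated block and -0.77 against other genes of like GC content. The run without the block is no test of the ratio, because the copies were found from peaks at zinc finger genes. Dropping the peaks on the copies lowers the density at zinc finger genes by construction. With equal numbers of peaks 3 group differences turned: -0.5 genes with a peak, -0.19 in log2 density ratio and -0.119 percentage points of summits in exons. The other 2 kept their sign but shrank, to 1 peak and 0.0033 percentage points of all peaks, with overlapping groups. The same setting gave 6 regions for control alone, 5 for si-N6AMT1 alone and 14 shared by the 4 libraries. Regions called only in control numbered 1 at a −log10 q of at least 5 and 1 without flanks, and regions called in all 4 numbered 14 when peaks were merged by summits within 200 bp. Leaving out 1 library changes what a class means: regions called only in control then numbered 5 (without si-N6AMT1 replicate 2) to 15 (without either control replicate), and those only in si-N6AMT1 20 (without control replicate 1) to 43 (without si-N6AMT1 replicate 1). Blocking by replicate number left the differences at 27.5 peaks, 16.5 genes, 0.027 percentage points of all peaks, 0.048 in log2 density ratio and 1.02 percentage points in exons, with a smallest possible p of 0.5; same-numbered libraries did not deviate together (correlation -0.014 over 1343 regions of the chromosome). The group of 30 related regions kept 29 at 80% identity, 30 at 250 bases and 75%, and 26 at 300 bases, always between 52.6 and 54.0 Mb. The dispersed groups of 31 and 24 did not hold: the next largest groups had 11 and 7, 8 and 7, and 19 and 5 regions at those limits. With 2 libraries a group and median pileups of 14 to 16 fragments, single calls near the threshold can change by counting error.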
